A study of Mus musculus with 6 samples.

Results

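The genes described here are 10 transcriptional targets of YAP and TAZ: Ctgf, Cyr61, Ankrd1, Amotl2, Amotl1, Ajuba, F3, Crim1, Nuak2 and Dock5. They were found by symbol, and all 10 are among the 24982 rows of the deposited matrix of gene counts. Of these 10 genes, 9 had enough counts to be among the 12310 genes tested, and Ankrd1 had none. Poly(A) RNA of sorted keratinocytes from mouse back skin was measured in 6 libraries, 1 from the normal and 1 from the denervated side of each of 3 animals, numbered 890, 892 and 899. All 6 libraries came from mice with 2 alleles: Lgr6-EGFP-Ires-CreERT2, in which the Lgr6 gene drives GFP and a Cre recombinase that tamoxifen activates, and R26loxP-stop-loxP-tdTom, from which Cre switches on the red protein tdTomato. Every animal received 20 µg of tamoxifen on postnatal day 42. The cutaneous nerves of the left side were removed by surgery and those of the right side were kept. Tomato-positive cells stained for CD49f, the integrin subunit encoded by Itga6, were sorted from both sides 4 weeks after the surgery. The comparison asks which RNAs differ in these sorted cells when the skin has lost its nerves. The protocols mention no sham dissection, so the effects of nerve loss, of the operation and of left against right cannot be told apart.

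YAP and TAZ are transcriptional co-activators that carry no DNA-binding domain of their own and act through the TEAD family of transcription factors. The Hippo kinases phosphorylate them and keep them out of the nucleus, whereas spread cell shape, stiff surroundings and tension in the actin cytoskeleton favour their entry. In skin, they are known for supporting the proliferation of basal epidermal cells. Ctgf, Cyr61, Ankrd1 and Amotl2 are the classical targets that are commonly read as a measure of YAP and TAZ activity, and the other 6 are less often used. Several targets feed back on the pathway: the angiomotin-like proteins Amotl1 and Amotl2 bind YAP and hold it in the cytoplasm or at junctions, and Ajuba inhibits the LATS kinases.

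The promoters are shown because TEAD factors bind DNA at a short motif, and the targets can be read for it directly. RefSeq windows on the GRCm38.p6 build, from 250 bases before to 50 bases after the transcription start, were matched for 7 of the 10 genes (Cyr61, Ankrd1, Amotl2, Amotl1, Ajuba, F3 and Crim1). The TEAD hexamer GGAATG, searched on both strands, was found in 5 of the 7, namely Cyr61, Ankrd1, Amotl2, Ajuba and Crim1. The same letters occur in 14.7% of all 32851 windows of this length. The AP-1 heptamer TGACTCA, also searched on both strands, was found in F3 alone among the 7, and in 5.2% of all windows. No match of one motif overlapped a match of the other, and the Amotl1 window held neither. The windows of Ankrd1, Amotl2 and Amotl1 lie inside the gene as GENCODE annotates it, which has transcripts that start further upstream, so that their positions hold for the RefSeq start only. The stretches of the other 4 genes with a match are printed 5′ to 3′ on the strand of the gene, with the matches in capitals (CATTCC is the TEAD hexamer, and TGAGTCA the AP-1 heptamer, read from the opposite strand). That of Cyr61 is chr3:145650056-145650115 and that of Ajuba chr14:54577804-54577863, both on the minus strand. That of F3 is chr3:121723375-121723434 and that of Crim1 chr17:78200142-78200201, both on the plus strand.
Cyr61: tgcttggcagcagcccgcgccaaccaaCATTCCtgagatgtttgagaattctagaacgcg
Ajuba: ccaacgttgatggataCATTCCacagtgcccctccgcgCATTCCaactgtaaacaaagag
F3: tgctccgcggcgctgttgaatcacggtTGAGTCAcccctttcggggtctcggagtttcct
Crim1: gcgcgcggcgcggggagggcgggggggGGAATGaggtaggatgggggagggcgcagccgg
The match in Cyr61 begins 103 bases before the start, that in Amotl2 65 and that in Crim1 79 bases before it. Ankrd1 holds its matches 210 and 123 bases and Ajuba 186 and 164 bases before the start, and the AP-1 match of F3 begins 135 bases before it. All these distances are from the RefSeq start. For Cyr61 and Ajuba that start lies upstream of the GENCODE gene, for Ajuba at 54577661 against 54577558. A match describes these letters and does not show that a factor binds there. The genes with a TEAD match include one without a single count (Ankrd1) and none of the genes that passed the test below, F3 having none and Dock5 no matched window.

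Total counts ran from 9610071 to 26167593 per library, and the smallest belonged to the denervated side of animal 890. In each of the 3 animals the denervated library had the lower total. The totals were 20724439 and 14021730 on the normal and denervated side of animal 892, and 13801154 and 13232950 in animal 899. TMM scaling factors were 1.014 to 1.033 in the normal and 0.967 to 0.988 in the denervated libraries. Markers of the sort label were present in the RNA: Krt5, a keratin of basal keratinocytes, stood at 19593 ± 704 counts per 1000000 (CPM, SD, n = 3) in normal and 19833 ± 2065 CPM in denervated libraries, and Lgr6 at 97.3 ± 8.65 and 93.8 ± 14.5 CPM. Itga6, whose protein the sort used, stood at 1425 ± 17.9 and 1624 ± 37.2 CPM and was not called (adjusted p = 0.266 in edgeR). Markers of suprabasal keratinocytes, led by Krt10, were abundant as well. They summed to 10290 to 10670 CPM in normal and 8483 to 10900 CPM in denervated libraries, with the denervated library higher in 1 of 3 animals. The basal list summed to 40330 to 46280 CPM. Summed markers of fibroblasts, cells in which Ctgf and Cyr61 are also well known, reached 1.08 to 4.44 CPM, with Lum at 0 in all 6 libraries, and the denervated library had the lower sum in each of the 3 animals. Endothelial markers summed to 0.526 to 1.72 CPM, with Cdh5 at 0. Pericyte and smooth muscle markers summed to 119 to 164 CPM, carried by Notch3 and Cspg4 with Kcnj8 and Abcc9 at 0. The sum of 8 Schwann cell and neuron markers was 187 to 203 CPM in normal and 240 to 298 CPM in denervated libraries, carried by Pmp22 and Mbp, while the defining gene Sox10 averaged 0.0156 CPM in normal and 0 in denervated libraries. The part of these cell types in the values of the target genes was not tested.

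The target genes covered a wide range of levels. On the deposited scale of transcripts per 1000000 (TPM), which corrects for gene length and so allows genes to be compared, Cyr61 stood at 1414 ± 426 TPM (SD, n = 3) on the normal side. Averaged over all 6 libraries, its level ranked 131 among 17112 genes with a TPM above 0, which was 13.3 times that of F3 and 252 times that of Dock5. Ajuba (91.3 ± 15.1 TPM), Amotl1 (85.6 ± 9.26 TPM), F3 (72.2 ± 10.1 TPM) and Crim1 (62.9 ± 1.38 TPM) followed, and each overlapped the next in this order. Amotl2 at 45.9 ± 4.43 TPM lay apart from Crim1 above and from Ctgf below. Ctgf (20.0 ± 2.75 TPM) and Nuak2 (16.3 ± 5.07 TPM) overlapped, and Dock5 was lowest of the detected genes at 4.36 ± 0.371 TPM. In the denervated libraries F3 took the second place and Amotl1 stood above Ajuba, with the order of the other genes as on the normal side.

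**Figure D1:**
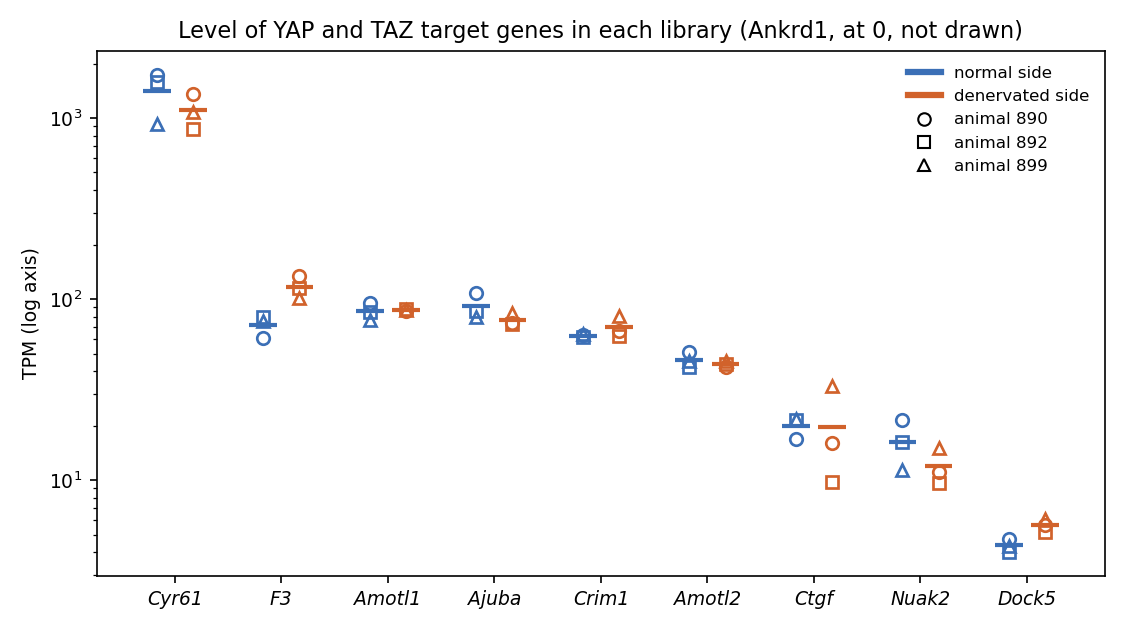
Level of each detected YAP and TAZ target gene in TPM (log axis) in the 3 normal (blue) and 3 denervated (orange) libraries, with a bar at the mean and a symbol for each animal. Cyr61 lies far above the others, Ctgf spreads from 9.71 to 32.9 TPM on the denervated side, and the denervated F3 libraries all lie above the normal ones.

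F3 and Dock5 were called higher on the denervated side, and none of the 9 tested genes was called lower. Log2 fold changes were below 0 in 5 of the 9. These 2 calls come from edgeR's quasi-likelihood test with the animal as a block and an adjusted p (Benjamini-Hochberg over all tested genes) below 0.05. Over all 12310 genes, 3.46% were called, 2.88% higher and 0.577% lower (355 and 71 genes). When libraries were scaled to their totals in place of the TMM factors, the split over all genes was 172 higher and 118 lower, the median log2 fold change of all genes moved from −0.02 to −0.09, and of the 9 genes only F3 was called. In 3 of the 9 genes, F3, Crim1 and Dock5, the libraries of both sides did not overlap, against 19.0% of all tested genes. The same 3 genes were the ones with the same direction in 3 of 3 animals, which 40.7% of all tested genes had. Without the block edgeR called no gene at all, with 1537 genes, F3 and Dock5 among them, at an unadjusted p below 0.05. In bulk RNA, a larger share of expressing cells and more RNA per cell cannot be told apart.

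Ctgf, the connective tissue growth factor (Ccn2 in the annotation, chr10:24595442-24598683, mm10), is a secreted matricellular protein. It had 20.3, 27.1 and 27.0 CPM on the normal side of animals 890, 892 and 899, and 20.7, 12.6 and 40.1 CPM on their denervated sides. Animal 890 hardly differed between its sides, animal 892 was lower and animal 899 higher after denervation, so the groups overlapped. The log2 fold change of denervated over normal was −0.14 ± 0.22 (SE), with a 95% interval of −0.61 to 0.34 and an adjusted p of 0.787 in edgeR. Its differences between sides had an SD of 0.851 over the 3 animals on the log2 scale, a spread above that of 95.75% of the tested genes. Without animal 892 the sign turned, to a log2 fold change of 0.33 with an adjusted p of 0.421.

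Cyr61 (Ccn1 in the annotation, chr3:145646976-145649981) encodes a relative of Ctgf that binds integrins. Its levels were 1821, 1731 and 1007 CPM in the normal and 1542, 977 and 1123 CPM in the denervated libraries of animals 890, 892 and 899. The denervated side was lower in animals 890 and 892 and higher in animal 899, whose normal library was the lowest of the 3 normal ones. The log2 fold change was −0.30 ± 0.14 (SE), with a 95% interval of −0.60 to −0.00, an unadjusted p of 0.0494 and an adjusted p of 0.272 in edgeR. It had between 13431 and 48461 counts per library.

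Ankrd1, an ankyrin repeat protein best known from heart and skeletal muscle and from cultured cells with active YAP (chr19:36111961-36120099), had 0 counts in all 6 libraries. Its TPM was 0 as well. With 3 counts taken as the limit that a count of 0 allows, its level was below 0.113 CPM in the deepest and below 0.323 CPM in the shallowest library, which covers counting error only. No comparison of the sides was possible for it.

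Amotl2 (chr9:102716672-102733418) had the most even values of the classical targets. Its normal libraries held 120, 106 and 110 CPM and its denervated libraries 108, 110 and 107 CPM. The log2 fold change was −0.04 ± 0.08 (SE) with an adjusted p of 0.821 in edgeR, and its 95% interval, −0.21 to 0.12, leaves out changes beyond these bounds. Without animal 890 it was 0.01.

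Amotl1 (chr9:14541966-14645056), the other angiomotin-like gene, gave an interval of similar width. It had 502, 466 and 419 CPM in the normal and 493, 496 and 459 CPM in the denervated libraries, so the ranges overlapped. Its log2 fold change was 0.07 ± 0.08 (SE), with a 95% interval of −0.10 to 0.23 and an adjusted p of 0.707 in edgeR.

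Ajuba (chr14:54567472-54577558), a LIM domain protein of cell junctions, had 192, 165 and 145 CPM in the normal and 141, 140 and 151 CPM in the denervated libraries. The 3 denervated values lay close together, while the normal side of animal 890 stood highest. The log2 fold change was −0.21 ± 0.09 (SE), with an unadjusted p of 0.0394 and an adjusted p of 0.245 in edgeR.

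Nuak2 (chr1:132316126-132333488), a kinase of the AMPK-related family that acts on actomyosin, showed the same order of animals. Its levels were 37.8, 30.1 and 20.4 CPM on the normal and 21.3, 18.4 and 25.5 CPM on the denervated side. On the log2 scale the denervated side differed from the normal side by −0.82 in animal 890, −0.70 in animal 892 and 0.32 in animal 899. Over the 3 animals the log2 fold change was −0.41 ± 0.18 (SE), with an unadjusted p of 0.0351 and an adjusted p of 0.233 in edgeR.

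F3 (chr3:121723537-121735048) encodes tissue factor, the cell surface receptor that starts blood coagulation. It stood at 58.0, 81.0 and 74.4 CPM in the normal and at 141, 118 and 96.3 CPM in the denervated libraries of animals 890, 892 and 899. Every denervated library lay above every normal one, and animal 890, with the lowest normal and the highest denervated value, had the widest gap. Means were 71.2 ± 11.8 and 118 ± 22.5 CPM (SD, n = 3). F3 rose 1.66-fold, a log2 fold change of 0.73 ± 0.13 (SE) with a 95% interval of 0.45 to 1.02, higher in 3 of 3 animals, and its adjusted p was 0.0120 in edgeR. The log2 differences of the animals were 1.28, 0.54 and 0.37, and without animal 890 the log2 fold change was 0.46 (adjusted p = 0.000416 in edgeR). With 2 animals left, that p-value rests mostly on dispersion estimates shared over all genes. It is not firmer evidence than the fit to all 3 animals. The call ended in edgeR without the block (adjusted p = 0.157), in DESeq2 with the block (0.0774) and in limma on log2(TPM + 1) with the block (0.124). In DESeq2 without the block F3 was called (adjusted p = 0.000228), so the effect of the block differed between the methods.

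Dock5 (chr14:67752135-67933442), an exchange factor that activates the GTPase Rac, had 28.6, 24.9 and 26.3 CPM on the normal and 35.8, 33.4 and 35.7 CPM on the denervated side. The sides did not overlap, and the 3 animals had like differences of 0.32, 0.42 and 0.44 on the log2 scale. Dock5 rose 1.32-fold, from 26.6 ± 1.89 to 35.0 ± 1.38 CPM (SD, n = 3), higher in 3 of 3 animals. Its log2 fold change was 0.40 ± 0.10 (SE) with a 95% interval of 0.18 to 0.61 and an adjusted p of 0.0452 in edgeR. The adjusted p was 0.187 in edgeR without the block and 0.0899 with library totals. It was 0.0695 in DESeq2 with the block, 0.0501 in DESeq2 without it and 0.380 in limma on log2(TPM + 1). Leaving out animal 892 or 899 gave 0.204 or 0.0710 in edgeR.

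Crim1 (chr17:78200248-78376592), a transmembrane protein that binds bone morphogenetic proteins, had 192, 200 and 204 CPM in the normal and 219, 205 and 245 CPM in the denervated libraries. All 3 denervated values lay above the normal ones, by a small margin in animal 892. The log2 fold change was 0.16 ± 0.08 (SE), with a 95% interval of −0.00 to 0.33 and an adjusted p of 0.275 in edgeR. The end of Crim1 overlaps Fez2 on the opposite strand, a gene at 10.1 CPM on the normal side, and the strand setting of the counting is not given in the sources used here. Ctgf and Amotl1 are overlapped by noncoding genes on the opposite strand, whereas F3 and Dock5 have no gene on the opposite strand.

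**Figure D2:**
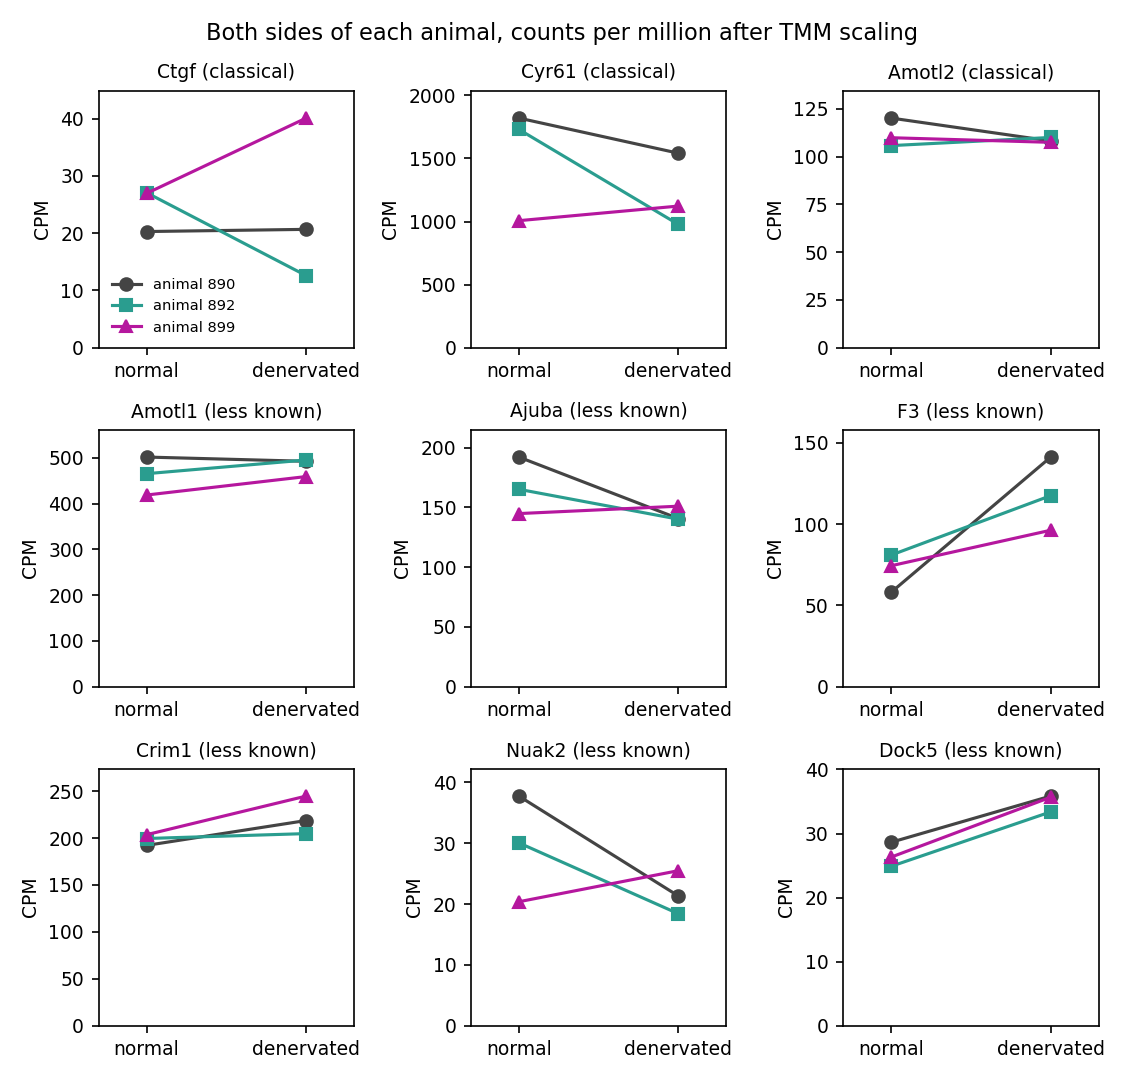
CPM after TMM scaling for the 9 detected YAP and TAZ target genes, each panel on its own axis from 0, with a line joining the normal and the denervated side of each animal. The 3 lines of F3, Crim1 and Dock5 all go up, while those of Ctgf, Cyr61, Ajuba and Nuak2 go in different directions, with animal 899 up in all 4.

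The classical and the less known targets did not share a direction: the tested classical targets all had log2 fold changes below 0 with no call, and the less known targets split. Of the 3 classical targets tested, none was called by edgeR's quasi-likelihood test with the block, 1 (Cyr61) had an unadjusted p below 0.05, and none was called in DESeq2 (2 genes with an adjusted p) or in limma on log2(TPM + 1). All 3 log2 fold changes were below 0, with a median of −0.14, but that of Ctgf turned without animal 892 and that of Amotl2 without animal 890. Of the 6 less known targets, 2 were called, both higher, and the log2 fold changes were above 0 in 4 and below 0 in 2, with a median of 0.11. The median over all tested genes was −0.02, and 45.3% of them were above 0. With Amotl2 counted as a less known target, the medians were −0.22 and 0.07. The difference between the classes was not tested.

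In Cyr61, Ajuba and Nuak2 the denervated side was lower in animals 890 and 892 and higher in animal 899, a pattern chosen after its values were seen. It was shared by 3 of the 9 genes and by 12.9% of all tested genes. Without animal 899 all 3 were called lower by edgeR with the block: Cyr61 at a log2 fold change of −0.53 (adjusted p = 0.00176), Ajuba at −0.34 (0.0173) and Nuak2 at −0.77 (0.000682). The 3 genes were picked for being lower in animals 890 and 892, so the fit without animal 899 cannot test a fall in them. Leaving out another animal made the differences smaller in most cases, with no call: Cyr61 was −0.33 without animal 890 and −0.03 without animal 892 (adjusted p = 0.193 and 0.974). Ajuba was −0.09 and −0.18 (0.734 and 0.631), and Nuak2 was −0.21 and −0.24 (0.544 and 0.672), without animals 890 and 892. In the fit without animal 899, 976 of all genes were called, and of the 9 genes F3 was called higher while Dock5 was not called. A list of 24 genes that respond quickly to tissue dissociation and stress, such as Fos and Egr1, moved with this pattern. In 15 of its 24 genes the denervated side was likewise lower in animals 890 and 892 and higher in animal 899. The medians of its log2 differences were −0.17, −0.48 and 0.29 in animals 890, 892 and 899. The summed level of the list was 28440 to 36960 CPM in the normal and 26200 to 35680 CPM in the denervated libraries, and none of its genes was at 0. Its part in the values of Cyr61, Ajuba and Nuak2 was not tested. Of the list, Klf6 (log2 fold change 0.44 ± 0.09, SE), Egr3 (0.35 ± 0.08) and Fosb (0.40 ± 0.10) rose and Socs3 (−0.59 ± 0.14) fell in edgeR with the block (adjusted p from 0.0243 to 0.0405), with 2 of the 24 called with library totals and none without the block. Over all tested genes, 3.46% were called in edgeR with the block.

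**Figure D3:**
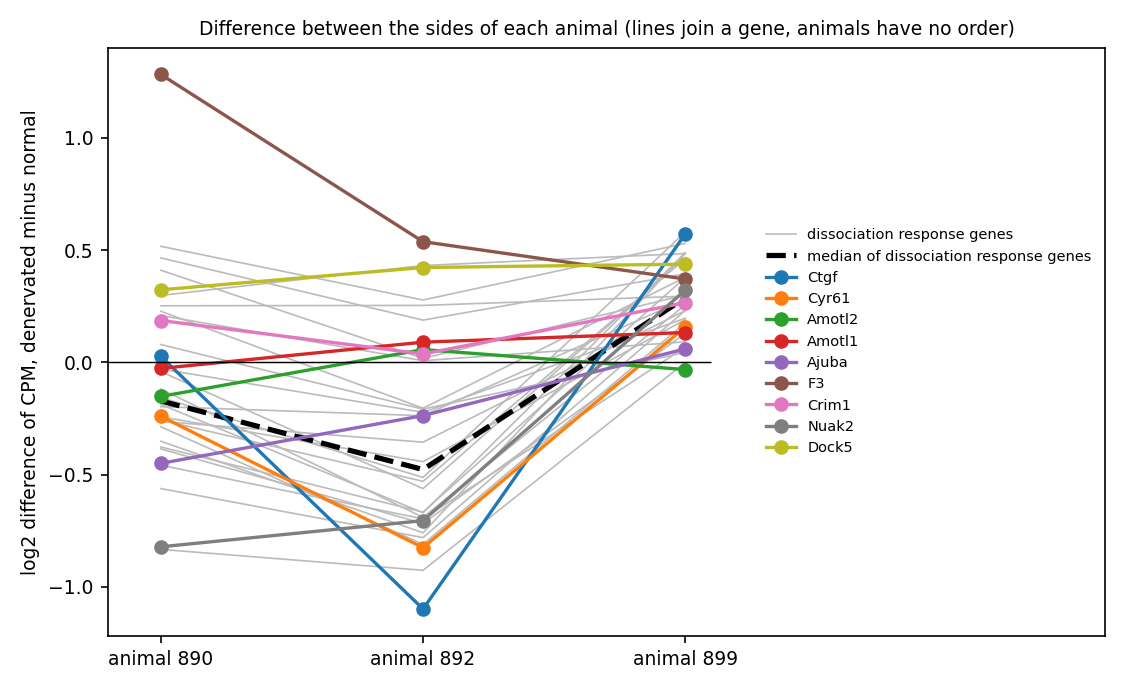
Log2 difference in CPM, denervated minus normal, within each animal for the 9 detected YAP and TAZ target genes (coloured) and 24 dissociation response genes (grey, with their median dashed). Cyr61, Ajuba and Nuak2 lie below 0 in animals 890 and 892 and above 0 in animal 899, as does the dashed median, while F3, Crim1 and Dock5 lie above 0 in all 3 animals.

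Profiles of the target genes over the 6 libraries were compared next. Pearson's r of log2 CPM was 0.97 between Ajuba and Nuak2, 0.80 between Cyr61 and Nuak2, and 0.72 between Cyr61 and Ajuba. F3 went with Dock5 (0.72) and opposite to Ajuba (−0.81) and Nuak2 (−0.72). The classical pair of Ctgf and Cyr61 had an r of 0.07. Of the 36 pairs of tested genes, 5 had an r above 0.7 and 2 below −0.7. The share over all pairs of genes was not computed, so these counts cannot be read as a result about the target genes. These values are descriptions over 6 libraries from 3 animals, which share animal and depth. The genes with the most similar profiles, among 9766 with a mean of at least 5 CPM, were Lrch1 (0.98), Timp2 (0.97) and Smoc2 (0.97) for Ctgf, and Cers4, H2afx and Fam193b (all 0.99) for Cyr61. For F3 they were Rab1a, Taf5l and Cd44 (all 0.99), and for Dock5 they were N4bp2l2, Setd2 and Dbr1 (all 0.99). Many genes came close: an r above 0.95 was reached by 5 genes for Ctgf, 33 for Cyr61, 47 for F3 and 68 for Dock5.

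The other genes of a 22-gene signature of YAP and TAZ activity had log2 fold changes mostly above 0. Of 14 such genes, 13 were tested, and Ccdc80, a secreted matrix protein, was the only one called, against 3.46% of all tested genes. It stood at 29.0 ± 6.60 CPM on the normal and 46.8 ± 19.5 CPM on the denervated side, with a log2 fold change of 0.65 ± 0.13 (SE) and an adjusted p of 0.0188 in edgeR, higher in 3 of 3 animals. Log2 fold changes were above 0 in 10 of the 13, against 45.3% of all tested genes, with a median of 0.21 (0.15 with library totals). Over the whole signature, the 8 target genes it shares included, 20 were tested, 3 were called higher (F3, Dock5 and Ccdc80), none lower, and the median was 0.18 against −0.02 over all genes.

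Among the genes that act on YAP and TAZ or with them, the RNAs of TAZ and of 2 TEAD factors rose on the denervated side, and Yap1 was not called. Of 30 Hippo pathway and TEAD genes, 29 were tested, and 4 were called, all higher, each in 3 of 3 animals. Over all tested genes, 2.88% were called higher. Tead4 rose from 8.65 ± 1.74 to 15.04 ± 2.54 CPM (log2 fold change 0.80 ± 0.17, SE, adjusted p = 0.0236 in edgeR). Tead1 rose from 99.3 ± 8.995 to 124.6 ± 7.91 CPM (0.33 ± 0.08, adjusted p = 0.0357). Wwtr1, which encodes TAZ, rose from 276 ± 11.5 to 340 ± 5.68 CPM (0.30 ± 0.08, adjusted p = 0.0459). Wwc1, the upstream Hippo regulator KIBRA, rose from 77.6 ± 10.9 to 103 ± 4.99 CPM (0.42 ± 0.10, adjusted p = 0.0307). Yap1 stood at 374 ± 30.2 and 372 ± 13.2 CPM (−0.01 ± 0.08, adjusted p = 0.971). None of the 29 was called without the block, and 1 was called with library totals or without animal 892.

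Genes of the actin cytoskeleton and its transcription factor SRF, which like YAP responds to actin tension, had log2 fold changes above 0 in the tested genes, with 2 below 0 when libraries were scaled to their totals and 2 of 19 below 0 in limma on log2(TPM + 1). Of 20 such genes 18 were tested, all 18 had log2 fold changes above 0, with a median of 0.32, and 5 were called higher by edgeR with the block and none without it. Over all tested genes, 45.3% had log2 fold changes above 0 and 2.88% were called higher with the block. Fhl2 rose from 5.23 ± 1.25 to 13.3 ± 0.599 CPM (log2 fold change 1.35 ± 0.18, SE, adjusted p = 0.00445), and Tpm1 (0.54 ± 0.09), Zyx (0.50 ± 0.08) and Vcl (0.48 ± 0.09) rose as well, each in 3 of 3 animals. None of the 18 had the pattern of Cyr61, Ajuba and Nuak2 over the animals.

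**Figure D4:**
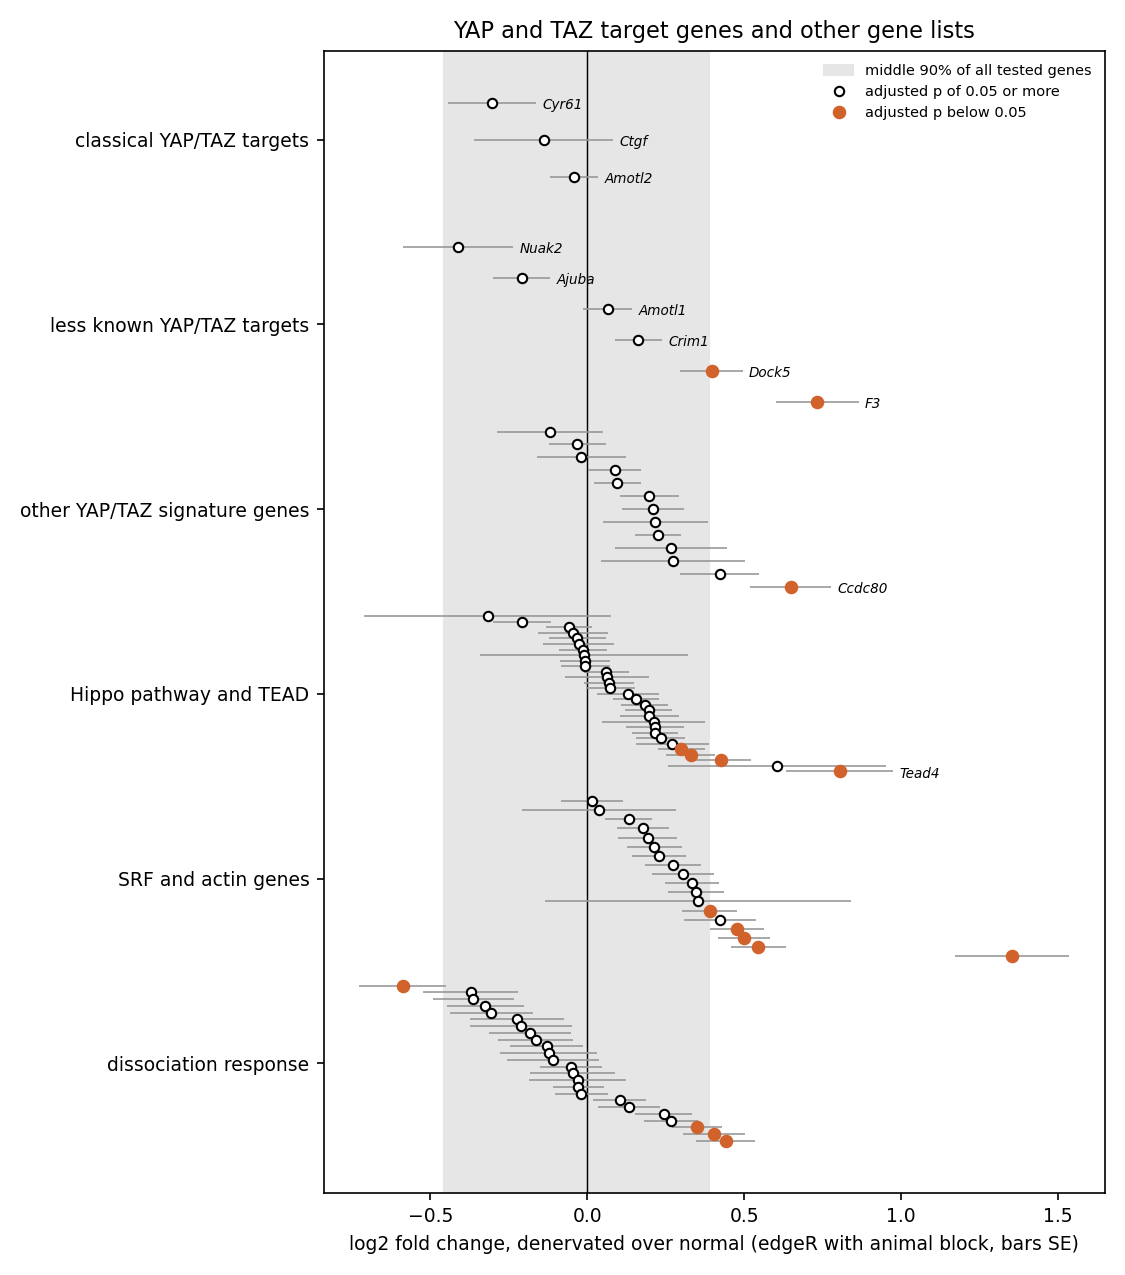
Log2 fold change of denervated over normal with its SE for each tested gene of 6 lists, from edgeR with the animal as a block; filled points have an adjusted p below 0.05 and the grey band holds the middle 90% of all tested genes. The 3 classical targets lie left of 0, the 6 less known targets run from Nuak2 at −0.41 to F3 at 0.73, and all 18 SRF and actin genes lie right of 0 (16 of 18 when libraries were scaled to their totals, and 17 of 19 in limma on log2(TPM + 1)).

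The authors' deposited table of fold changes gives every one of the 9 genes the same sign. It lists F3 at a log2 fold change of 0.72 with an adjusted p of 0.0771 and Dock5 at 0.39 with an adjusted p of 0.0973, both above 0.05. For the classical targets the authors' deposited table lists Ctgf at −0.17 (adjusted p = 0.920), Cyr61 at −0.30 (0.720) and Amotl2 at −0.04 (0.920).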

How the data were processed

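The sample titles gave each library's group and animal. The submitters' processing notes list mm10, Salmon 0.11.2 and STAR 2.6.1a without roles; the sources used here give no annotation, counter or strand setting. No sequencing batch is given in the labels. The authors deposited whole-number counts for 24982 rows, of which 26 carry names turned into dates and stayed in totals and tests. Per the file headers, per-sample files hold Salmon's estimated counts, TPM and lengths, and the authors deposited a TPM table. The authors' comparison gives log2 fold changes, p-values, a test score and the mean normalised signal, per the file headers.

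Denervated and normal were compared with edgeR 4.0.16 (R 4.3.3; TMM factors, filterByExpr with a minimum count of 10 and a total of 15, quasi-likelihood test) with the animal as a block, over all genes, with Benjamini-Hochberg adjustment and a threshold of 0.05. Standard errors were computed by dividing the size of the log2 fold change by the root of F. The biological coefficient of variation was 0.092. The block is set by the labels, which take both sides from the same mouse. As a check, deviations from group means correlated at 0.356, 0.361 and 0.443 within animals and from −0.278 to −0.0407 between them, across genes. No 2 libraries of a group were duplicates (chi-square over its degrees of freedom, 12.8 to 18.9). With the block, p-values rest in part on how far the difference between sides varied over these 3 mice. They also rest on dispersion estimates that borrow from all genes. For Ctgf the SE was 0.22 in edgeR against 0.47 in DESeq2 with the block, and for F3 0.13 against 0.28. For Amotl1, which varied little, both gave 0.08. The edgeR SEs and intervals of genes that varied between mice can therefore understate that spread.

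Alternatives used DESeq2 1.42.0, where an adjusted p of NA stayed NA, the estimated counts rounded to whole numbers, and limma 3.58.1 on log2(TPM + 1) or log2(TPM + 0.1) over genes whose TPM averaged 1 or more, a scale that understates changes of low genes. Each animal was left out in turn in edgeR, and p-values of these fits to 2 animals rest mostly on dispersion estimates shared over all genes. The tests were checked on simulated data with the same dispersion for every gene and changes larger than those of the target genes. That check does not cover the calls made here. Marker sums are CPM after TMM scaling. The target genes, the lists and the classes were chosen with earlier results of these data known. All 10 targets are named, and from each other list up to 4 called genes by smallest p, or the 2 with the smallest p where none was called. The genes most like a target are the 3 with the highest correlation, for Ctgf, Cyr61 and the called targets, leaving out predicted genes. Coordinates are from GENCODE M21 (mm10), and promoter windows from RefSeq.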

Additional observations from a re-analysis of the deposited data

How the results depend on the processing

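Over 12 alternatives for the 9 target genes (108 values), 90 kept direction and side of the threshold, 11 lost a call, 5 gained one and 2 reversed: Ctgf at 0.33 without animal 892 (range −0.54 to 0.33 over the animals left out) and Amotl2 at 0.013 without animal 890 (range −0.075 to 0.013). Ctgf and Nuak2 had no adjusted p in DESeq2 with the block, and both values are counted among the 90 as not called. The comparison as reported, paired by the animal as a replicate block, called 426 genes, and the fit with no replicate block called 0 (DESeq2 with the block called 493). Without a filter on low counts 987 were called, in limma on TPM 1 with either pseudocount, at an adjusted p below 0.1 820, and leaving out 1 animal gave 248 (without 892) to 976 (without 899). Of the 9 target genes, 2 were called, against 0 with no replicate block, 1 with library totals, 4 without a filter (Cyr61 and Nuak2 added, both lower), 0 in DESeq2 with the block (7 with an adjusted p) and 0 in limma with either pseudocount; leaving out 1 animal gave 1 (without 892) to 4 (without 899). Of the other signature genes, 1 was called, against 0 with no replicate block, 2 without a filter, 0 in limma, 2 at an adjusted p below 0.1, and 1 to 2 when 1 animal was left out (2 without 899). Of the Hippo and TEAD genes, 4 were called, against 0 with no replicate block, 1 with library totals, 0 in limma, and 1 to 4 when 1 animal was left out (2 without 890, 1 without 892). The median of the classical targets ran from −0.53 (without 899) to −0.03 (without 892), and that of the less known from 0.05 to 0.16. Counts per library were 173 to 579 for Ctgf, 198 to 1005 for Nuak2 and 333 to 762 for Dock5. Their SEs were 0.22, 0.18 and 0.10, beside 0.14 for Cyr61, which had 13431 to 48461 counts. Without the filter on low counts, the SEs of Nuak2 and Cyr61 were 0.12 and 0.085, smaller at like log2 fold changes (−0.41 and −0.30). Their calls in that fit are therefore not firmer evidence. With 3 animals the precision of every gene is limited.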

Other observations

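Close relatives of the target genes gave no call. Of 14 such genes, 7 were tested by edgeR's quasi-likelihood test with the block and none was called, against 3.46% of all tested genes. With 7 genes, no call is close to that share. Of the 7, 1 had an unadjusted p below 0.05 in edgeR (lower), and none was called in DESeq2 (3 with an adjusted p) or in limma on log2(TPM + 1). Nuak1, the sister kinase of Nuak2, stood at 59.2 ± 9.10 CPM (SD, n = 3) in the normal and 45.6 ± 14.2 CPM in the denervated libraries, a log2 fold change of −0.40 ± 0.12 (SE) with an adjusted p of 0.0808 in edgeR. Dock4, an exchange factor related to Dock5, stood at 3.92 ± 1.25 and 2.39 ± 1.82 CPM, a log2 fold change of −0.81 ± 0.42 (SE) with an adjusted p of 0.328 in edgeR. Nov, which like Ctgf and Cyr61 belongs to the CCN family of matricellular proteins, had 0 counts in all 6 libraries.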
